A study of Homo sapiens with 5 samples.

Results

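The genes described are the 7 that encode inhibitors of cyclin-dependent kinases (CDKs), out of 19970 protein-coding genes of GENCODE 44 on chromosomes 1 to 22 and X. They were chosen by name as the 2 families of such inhibitors. The INK4 family has 4 members, CDKN2A, CDKN2B, CDKN2C and CDKN2D, and the CIP/KIP family has 3, CDKN1A, CDKN1B and CDKN1C. Every Rb peak that overlapped their promoters or gene bodies was collected. A promoter was taken as 2000 bp upstream to 500 bp downstream of any annotated transcription start site (TSS).

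Rb was profiled by CUT&RUN, in which an antibody tethers a nuclease to a chromatin protein so that the DNA beneath it is cut out and sequenced. The cells were parental ZR-75-1, 1 established breast cancer line that carries the oestrogen receptor, grown for 4 days with DMSO or with abemaciclib at 500 nM. Each treatment had 2 Rb libraries, described by the study as independent cultures, and a single IgG2a library from DMSO-treated cells measured background. Peaks numbered 1438 in DMSO replicate 1, 2582 in DMSO replicate 2, 13960 in abemaciclib replicate 1, 12234 in abemaciclib replicate 2 and 589 for IgG2a. Peak lists carry no expression, so the line could not be checked by its markers.

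INK4 proteins bind CDK4 and CDK6 and keep cyclin D from activating them, and these are the kinases that abemaciclib inhibits. CIP/KIP proteins bind complexes of a cyclin with its kinase, foremost those of CDK2. Both families thereby keep Rb in its underphosphorylated form, in which it binds E2F transcription factors at promoters and represses transcription. Rb in turn is known to act on some of these genes, and loss of Rb is a textbook setting of high p16INK4a, the product of CDKN2A.

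All 7 genes had an Rb promoter peak in both abemaciclib libraries, and 52.7% of all coding genes did. In DMSO, replicate 1 had a promoter peak at 2 members, CDKN2C and CDKN2D, and replicate 2 at 4, the whole INK4 family. The corresponding shares of all coding genes were 7.86% and 12.4%. The mean was 3.0 ± 1.41 members in DMSO and 7.0 ± 0 in abemaciclib (SD, n = 2 each), a difference of 4. The groups did not overlap, and the two-sided p of an exact permutation test over libraries was 0.333, which is the lowest value that 2 libraries against 2 allow. The abemaciclib lists were longer for the genome as a whole, so these counts moved with list length. With the strongest 1438 peaks of each Rb library, the difference was -1, and CDKN2C was the only member with a promoter peak in both abemaciclib lists.

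The families differed in which libraries held the peaks. CDKN1A, CDKN1B and CDKN1C had promoter peaks with abemaciclib alone, in both replicates, a pattern shown by 38.9% of coding genes. CDKN2C and CDKN2D had a promoter peak in all 4 Rb libraries, a pattern shown by 6.41% of coding genes. CDKN2A and CDKN2B lay between, where DMSO replicate 2 but not replicate 1 listed a peak besides both abemaciclib libraries. All CDKN2A peaks lay at its distal TSSs, and none at those of p16INK4a. IgG2a had 0 peaks at the promoters or bodies of the 7 genes and 0 within 20 kb of them. DMSO replicate 2 did list a peak in the flank of CDKN1C, at chr11:2874232-2874415, 8798 bp from the gene, with a fold of 4.16 and rank 2315 of 2582. CDKN1C had the nearest coding TSS, and no other library listed a peak there. In abemaciclib, each of the 7 had a peak overlapping its gene body in both libraries, as did 52.5% of coding genes. Apart from a further peak in CDKN1A, these were the promoter peaks themselves, reaching into the gene. When the summit had to lie in the gene body, 5 members remained.

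**Figure D1:**
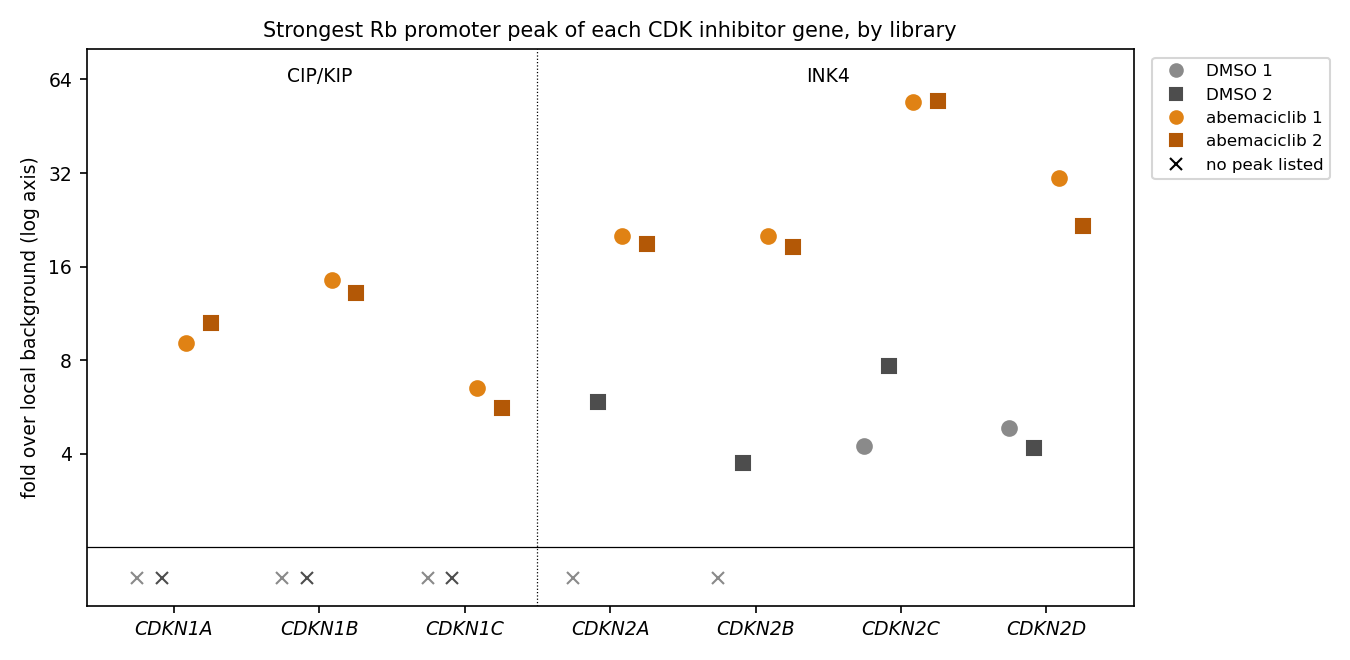
Fold enrichment over local background (log axis) of the strongest Rb promoter peak of each gene, 1 symbol per library, with crosses for libraries that list no peak. The CIP/KIP genes have crosses in both DMSO libraries, and the INK4 genes lie at 18.4 or more in both abemaciclib libraries. The CDKN2A peaks are those at its distal TSSs, not at those of p16INK4a.

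Each peak carries a fold over local background, a −log10 p and a rank by that p within its own library, where 1 is the strongest. Fold and p depend on depth, so the values below describe peaks within a library. The peak percentile is the share of that library's peaks that rank lower. The fold and the p together fix the pileup, the whole number of fragments stacked at the summit, for 99.0% to 99.7% of peaks in each Rb library. The average background so recovered was 0.649 and 0.677 fragments in DMSO and 0.656 and 0.521 in abemaciclib. That of abemaciclib replicate 1 was above DMSO replicate 1, and both abemaciclib values were below DMSO replicate 2. At that background, the lowest pileup was 6 fragments on the DMSO lists and 5 on the abemaciclib lists. A DMSO promoter with fewer than 6 is not told apart from an empty one.

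CDKN2C, which encodes p18INK4c, had the strongest peaks of the 7. Over its TSS at position 50968706 of chromosome 1, the fold was 54.1 in abemaciclib replicate 1 and 54.5 in replicate 2 (54.3 ± 0.276, SD, n = 2). The −log10 p was 175 and 163, which ranked 535 of 13960 and 367 of 12234 peaks. The pileup was 107 and 96 fragments, 174 ± 14.9 times the average background (SD, n = 2). DMSO replicate 2 had a peak at the same place with a fold of 7.64, a −log10 p of 12.1 and rank 759 of 2582, with 12 fragments. DMSO replicate 1 listed none there. All 3 peaks therefore stood in the upper part of their own lists, at percentiles of 96.2, 97.0 and 70.6. The abemaciclib peaks were 2237 and 2258 bp wide, wider than 98.5% and 99.0% of promoter peaks, and overlapped by 2052 bp. In replicate 1 the peak spanned chr1:50967979-50970215 (GRCh38), with its summit in a UTR of CDKN2C. The DMSO replicate 2 peak, 516 bp wide, lay wholly inside both.

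A separate CDKN2C peak lay about 8 kb upstream, in the promoter window of the TSS at position 50960745, and this was the one present in all 4 libraries. Its fold was 4.24 in DMSO replicate 1 (rank 1373 of 1438), 7.16 in DMSO replicate 2 (rank 862), 32.6 in abemaciclib replicate 1 (rank 1885) and 29.6 in abemaciclib replicate 2 (rank 1578). In no library did this peak reach that TSS. It ended 49 and 70 bp before it in the abemaciclib libraries and farther upstream in the DMSO libraries. The region is shared with FAF1, a gene read from the opposite strand, whose TSS was nearer to the summit in each of the 4 libraries. When a peak was counted only for the coding gene with the nearest TSS, CDKN2C lost its call in DMSO replicate 1, and CDKN2D alone had a peak in all 4 libraries.

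The wide CDKN2C peak held 4 matches to an E2F pattern within the stretch common to both replicates, more than any other inhibitor promoter. The pattern was searched on both strands in 4 forms, where a match was TTGGCGC exactly or else TTCCCGC exactly, and likewise TTGCCGC exactly or else TTCGCGC exactly. The 4 matches are shown with 11 bases on either side, read 5′ to 3′ on the strand of the gene (GRCh38), with the match in capitals.
CDKN2C site at chr1:50968313-50968341, plus strand: cgctgtccgccTTCCCGCagcgtacgctg
CDKN2C site at chr1:50968564-50968592, plus strand: gagagcgggagGCGGGAAtgagggcgcgg
CDKN2C site at chr1:50968661-50968689, plus strand: ggcgcccggccTTCCCGCtcccgcggcgc
CDKN2C site at chr1:50969320-50969348, plus strand: ctcggtcgtagGCGGGAAgttcccggggg
The match that begins at 50968324 was the only one of any member within 100 bp of a promoter summit in the abemaciclib libraries, at -36 bp from the summit of abemaciclib replicate 2. Matches of these letters were common. Of the 523 promoter peaks of abemaciclib replicate 1 whose width was within 20% of this one, 82.8% held at least 1.

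CDKN2D, which encodes p19INK4d, had a promoter peak in all 4 libraries near its TSS at position 10569059 of chromosome 19. The peak of DMSO replicate 1 lay wholly upstream of that TSS, with its summit 155 bp before it, and the other peaks covered it. The fold was 4.85 in DMSO replicate 1 and 4.17 in DMSO replicate 2, with 7 and 6 fragments at the summit, at ranks 1138 of 1438 and 2405 of 2582. In abemaciclib it was 30.8 and 21.7 (26.2 ± 6.44, SD, n = 2), with 50 and 32 fragments, at ranks 2083 and 2644. The DMSO peaks were thus among the weaker ones of their lists and the abemaciclib peaks among the stronger ones. Both abemaciclib summits fell on the same base, 31 bp after the TSS in a UTR, and the peak of replicate 1 spanned chr19:10568320-10569801. The DMSO peaks, 307 and 134 bp wide, abutted without sharing a base, and each lay wholly within the abemaciclib peaks of 1482 and 1408 bp. When the q-value had to be 0.01 or lower, the peak of DMSO replicate 2 was dropped, and no member then had a peak in all 4 libraries. With a limit of 1e-05, CDKN2C was the only member that kept a DMSO peak, and 6 members had peaks with abemaciclib alone.

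The 250 bases upstream of the CDKN2D TSS are printed because only there, among the peaks of the 7 genes, did an E2F match stand outside all annotated exons, and a CHR match stood beside it. The CHR pattern is TTTGAA, the element through which the DREAM complex represses cell cycle genes. The other patterns searched on both strands were CCAAT for NFY and GGGCGG for the GC box bound by SP1. Neighbouring GC boxes can share bases, as can a GC box and an E2F match. The strand is that of the gene, and the capitals mark, in order, 1 E2F, 1 CHR, 1 CCAAT and 1 GC box match.
CDKN2D upstream, chr19:10569060-10569309, minus strand: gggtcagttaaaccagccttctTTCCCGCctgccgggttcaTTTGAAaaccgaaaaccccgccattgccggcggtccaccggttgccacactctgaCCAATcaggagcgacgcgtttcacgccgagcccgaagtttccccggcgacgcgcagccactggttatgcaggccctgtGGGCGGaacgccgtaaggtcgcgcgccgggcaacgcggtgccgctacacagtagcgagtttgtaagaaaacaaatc
The E2F and CHR matches lay 256 and 238 bp from the abemaciclib summits, inside the peak of DMSO replicate 1 and outside that of replicate 2. Of 15812 RefSeq promoters of coding genes (GRCh38.p14) cut to 250 bases upstream of the RefSeq start, 14.5% held the E2F pattern, 10.8% the CHR pattern, 34.4% CCAAT and 56% a GC box. The RefSeq promoter of CDKN2D itself is set from another TSS, at 10568979. Its 300 bases, chr19:10568930-10569229, held 0 E2F and 0 CHR matches.

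CDKN2A encodes p16INK4a from a proximal TSS and the p53-stabilising protein p14ARF from a distal one. Its fold was 20.1 and 18.9 in abemaciclib (19.5 ± 0.819, SD, n = 2), at ranks 2564 and 2613, with 59 and 40 fragments at the summit. In DMSO replicate 2 the fold was 5.88, at rank 1254 of 2582, with 11 fragments, and DMSO replicate 1 listed no peak. Every one of these peaks lay at the distal TSSs, between positions 21994392 and 21995301 of chromosome 9. The TSSs of p16INK4a, between 21974827 and 21974866, had no peak in any library, and the nearest abemaciclib peak ended 19219 and 19450 bp away. In replicate 1 the peak spanned chr9:21994085-21996018, with its summit upstream of the gene. The distal region is shared with CDKN2B-AS1, the antisense RNA also called ANRIL, so that the 2 genes cannot be told apart by position.

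Within that distal region the DMSO and abemaciclib summits lay apart. The DMSO replicate 2 peak was 268 bp wide, and its summit lay 997 and 967 bp from those of the abemaciclib peaks, which were 1934 and 1703 bp wide. The abemaciclib summits were 30 bp apart. The 200 bases around them had a GC content of 57.5% and 58.0%, lower than at most promoter summits (median 69.0%), and held none of the 4 patterns. The stretch common to both abemaciclib peaks held 3 E2F matches. Of these, 1 stood upstream of the distal TSSs and 2 stood within 100 bp of each other near the DMSO summit.
CDKN2A site upstream, chr9:21995788-21995816, minus strand: ctgggctcgacTTCCCGCgcgcggagagc
CDKN2A site near the DMSO summit, chr9:21994661-21994689, minus strand: gcgcacacaggGCGGGAAagtggcggtag
CDKN2A site near the DMSO summit, chr9:21994572-21994600, minus strand: tccggcagcccTTCCCGCgtgcgcagggc
Among 1024 promoter peaks of similar width, 78.7% held at least 1 such match.

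CDKN2B, the neighbour of CDKN2A, encodes p15INK4b, an effector of TGF-β arrest. It had nearly the same fold as CDKN2A, 20.0 and 18.4 in abemaciclib (19.2 ± 1.14, SD, n = 2), with 39 and 28 fragments, at ranks 3542 and 3285. Its peaks were their own, since they lay 12.6 kb from those of CDKN2A and no other coding TSS shared the window. The DMSO replicate 2 peak was among the weakest on that list, with a fold of 3.75, 8 fragments and rank 2547 of 2582. It lay at the same place, since its summit was 18 and 56 bp from the abemaciclib summits and the peak, 185 bp wide, was wholly inside both. In abemaciclib replicate 1 it spanned chr9:22008584-22009475, with its summit 312 bp after the TSS in a UTR. The single E2F match of the abemaciclib peaks was in another form of the pattern.
CDKN2B site, chr9:22008745-22008773, minus strand: cggcagggggcGCGCGAAcgcggggcgcg
Among 3120 promoter peaks of similar width, 53.7% held at least 1 match.

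**Figure D2:**
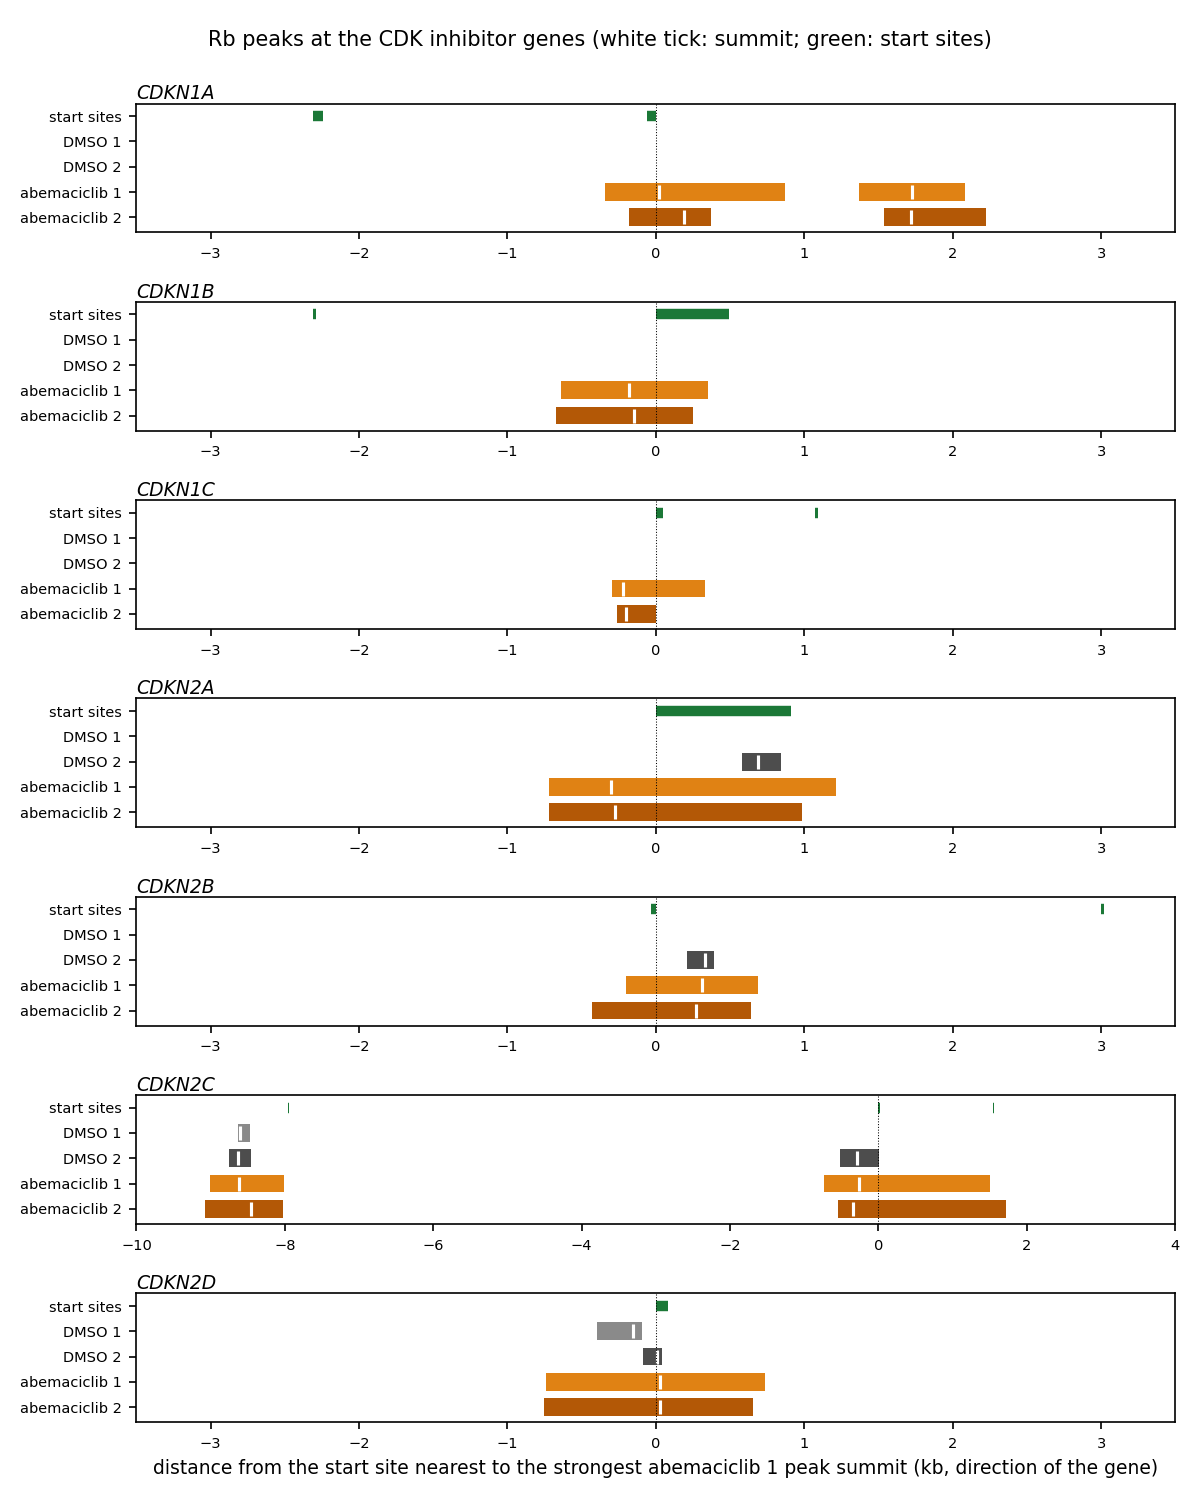
Rb peaks of each library at the 7 genes, drawn to scale against the distance in kb from the TSS nearest to the strongest abemaciclib replicate 1 summit, in the direction of the gene, with summits as white ticks and annotated start sites in green. The DMSO peaks are narrower and lie inside the abemaciclib peaks, and the CDKN2A summit of DMSO replicate 2 is 997 bp from that of abemaciclib replicate 1.

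CDKN1B encodes p27KIP1, which restrains cyclin E with CDK2 and is a main brake on luminal breast cells. It had the strongest peaks of the CIP/KIP family, with a fold of 14.5 and 13.1 in abemaciclib (13.8 ± 0.953, SD, n = 2), 23 and 19 fragments and ranks 5489 and 4955. The percentiles were 60.7 and 59.5, close to the middle of the lists in both replicates, and the peaks overlapped by 895 bp. Summits lay 183 and 149 bp before the TSS at position 12717368 of chromosome 12, in an intron of the longer transcripts, and the peak of replicate 1 spanned chr12:12716726-12717723. The 4 groups of TSSs farther upstream, from 12685498 to 12715058, had no peak, and neither DMSO library listed one anywhere in the gene. The promoter of APOLD1, a neighbour, carried a stronger peak from 2319 and 2754 bp beyond the end of CDKN1B, with folds of 18.7 and 20.3.

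No E2F match was found in the CDKN1B peak. Of 3314 promoter peaks of similar width, 58.4% held at least 1. The 250 bases upstream, which contain both summits, are shown for comparison with CDKN2D, and hold in capitals 2 CCAAT boxes and 1 GC box.
CDKN1B upstream, chr12:12717118-12717367, plus strand: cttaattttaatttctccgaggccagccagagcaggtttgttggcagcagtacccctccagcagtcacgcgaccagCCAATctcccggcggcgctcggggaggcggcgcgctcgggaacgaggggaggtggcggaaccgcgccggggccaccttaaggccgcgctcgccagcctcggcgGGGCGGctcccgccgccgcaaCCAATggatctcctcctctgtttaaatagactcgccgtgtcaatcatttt

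CDKN1A encodes p21CIP1, the p53 target that stops the cycle after DNA damage. Its promoter peak had a fold of 9.06 and 10.5 in abemaciclib (9.79 ± 1.03, SD, n = 2), with 14 and 15 fragments, at ranks 8147 of 13960 and 6176 of 12234. The 2 peaks differed in width, at 1215 and 557 bp, and their summits lay 21 and 189 bp after the TSS at position 36678771 of chromosome 6. The TSSs farther upstream, at 36676460 to 36676528, had no peak, the nearest being 1898 and 2062 bp away. The peak of replicate 1 spanned chr6:36678426-36679640, with its summit in a UTR, and that of replicate 2 had its summit in an intron. DINOL, a non-coding RNA gene, shares the promoter window.

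CDKN1A was the only member with a further peak inside the gene and outside its own promoter windows. It lay 1725 and 1722 bp after the TSS, with summits 3 bp apart, a fold of 10.8 and 6.92, and 26 and 14 fragments. This inner peak, too, overlapped a promoter window of DINOL in both replicates. It outranked the promoter peak in abemaciclib replicate 1 (6247 against 8147) and fell below it in replicate 2 (8160 against 6176). The E2F pattern matched 3 times in the stretch of this inner peak common to both replicates, and 46% of 2524 promoter peaks of similar width held at least 1 match. It matched 0 times in the promoter peak. Of 3080 promoter peaks as wide as the CDKN1A promoter peak, 64.2% held at least 1 match. The 250 bases before the most upstream TSS of the promoter group, at 36678710, held 4 GC boxes, in capitals, of which the last 2 share a base.
CDKN1A upstream, chr6:36678460-36678709, plus strand: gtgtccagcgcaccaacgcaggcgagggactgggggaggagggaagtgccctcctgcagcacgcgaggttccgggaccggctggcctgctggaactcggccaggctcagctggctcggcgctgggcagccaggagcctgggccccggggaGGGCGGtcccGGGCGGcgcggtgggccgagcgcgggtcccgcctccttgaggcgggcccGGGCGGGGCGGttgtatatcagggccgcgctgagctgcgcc

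CDKN1C encodes p57KIP2, an imprinted inhibitor that is active in development. It had the weakest promoter peaks of the 7, with a fold of 6.52 and 5.62 in abemaciclib (6.07 ± 0.633, SD, n = 2), 12 and 9 fragments and ranks 9844 and 9905. Its percentiles were 29.5 and 19.0, and the peaks were 633 and 267 bp wide with summits 16 bp apart, 218 and 202 bp before the TSS at position 2885775 of chromosome 11. The peak of replicate 1 spanned chr11:2885441-2886073. With the DMSO lists starting at 6 fragments for an average background, its 12 and 9 fragments were the closest of any member to what the DMSO lists could not show. The sequence was the richest in GC of the members, at 85.0% and 83.5% in the 200 bases around the summits, more than at 98.9% and 98.0% of promoter summits. No E2F match was found in the CDKN1C peak. Of 2126 promoter peaks as narrow as the one of abemaciclib replicate 1, 41.3% held an E2F match somewhere.

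In the same libraries, the 4 INK4 genes had higher folds than the 3 CIP/KIP genes in each abemaciclib library. The CDKN2A folds are those of the peak at its distal TSSs, since the TSSs of p16INK4a had no peak. In replicate 1 the INK4 folds ran from 20.0 to 54.1 (median 25.4) and the CIP/KIP folds from 6.52 to 14.5 (median 9.06), against a median of 12.2 over 11183 promoter peaks. In replicate 2 the INK4 folds ran from 18.4 to 54.5 (median 20.3) and the CIP/KIP folds from 5.62 to 13.1 (median 10.5), against a median of 11.2 over 10194 promoter peaks. The families did not overlap in either library. CDKN2C, CDKN2D, CDKN2A and CDKN2B followed each other in mean fold, but the last 2 lay within 1 SD of each other. CDKN2D lay above both in each replicate, with an SD of 6.44, the widest of the 7. E2F matches went the same way, with at least 1 in the shared stretch of every INK4 promoter peak and 0 in those of the 3 CIP/KIP genes. Over all 11183 promoter peaks of replicate 1, 50.1% held at least 1. Among 2241 of similar width to that of CDKN2D, 69.9% did. Nearer to the starts the difference depended on the TSS used. In the 300 bases of the RefSeq promoters, the pattern matched 0 times in every INK4 gene and 0 times in CDKN1A and CDKN1B. For CDKN2C that promoter, chr1:50960495-50960794, belongs to the upstream TSS. Matches with their 11 flanking bases began -142 and -45 bp from the CDKN2C TSS at 50968706, and -239 bp from the CDKN2D TSS at 10569059. For CDKN2A at 21995301 and CDKN2B at 22009272, the nearest began at -515 and 499 bp. The 250 bases printed for CDKN1A and CDKN1B held none. These are 7 genes, wider peaks hold more matches, and no test was run.

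**Figure D3:**
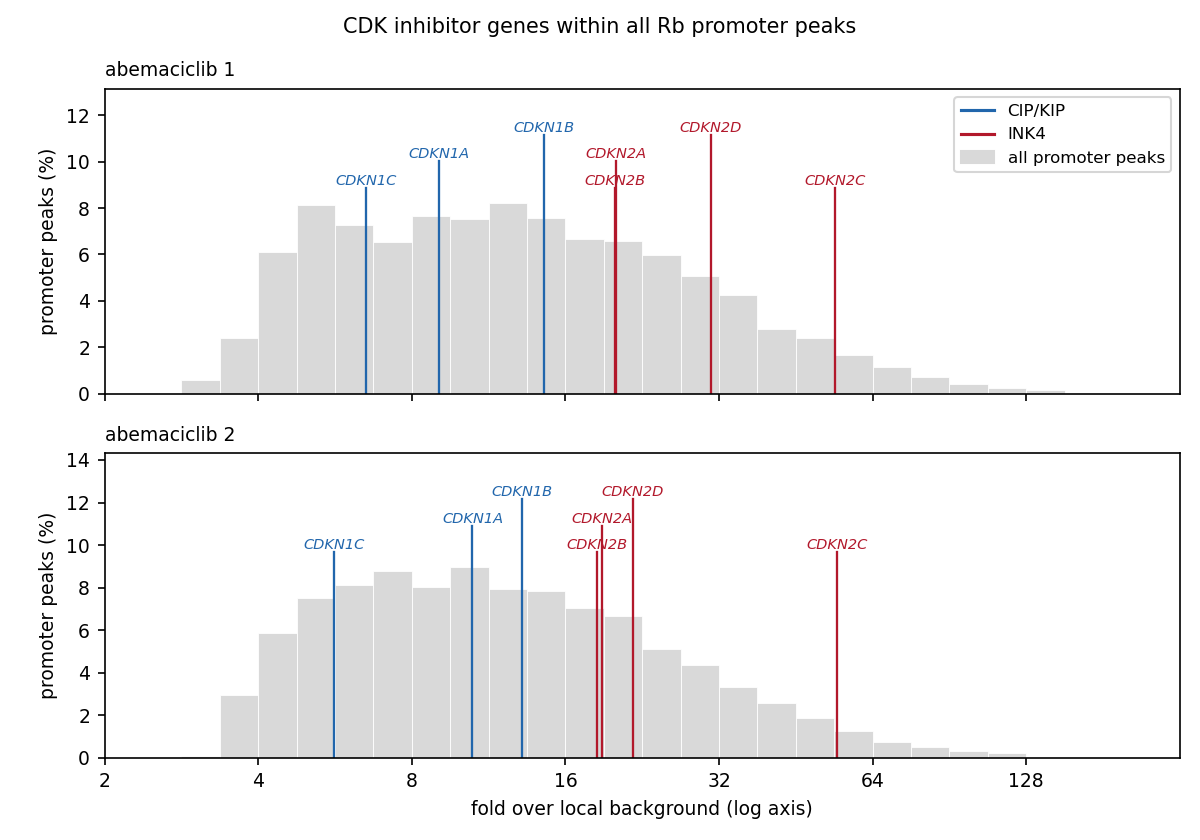
Folds of the strongest promoter peak of each gene (vertical lines) over the distribution of all promoter peaks (bars, % of peaks per bin, log axis) in each abemaciclib library. The 4 INK4 genes lie above the median of 12.2 in replicate 1 and 11.2 in replicate 2, and CDKN1A and CDKN1C lie below it in both. The CDKN2A folds are of the peaks at its distal TSSs, not at those of p16INK4a.

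The genes around the inhibitors were then counted from 3 lists, 55 genes in all, of which 47 had a promoter peak in both abemaciclib libraries. Of 13 cyclins and kinases that the inhibitors act on, 11 had a promoter peak in both abemaciclib libraries, 7 of them with none in DMSO, and 2 had one in all 4. Those 2 were CDK4, the target of both the INK4 proteins and abemaciclib, with folds of 5.75 and 5.29 in DMSO and 26.5 and 25.6 in abemaciclib, and CCNE2, the cyclin E2 gene, with 13.5 and 12.9 against 106 and 68.0. Of the 7 without a DMSO peak, CCND3, CCNA2 and CDK2 ranked highest, with folds of 47.7 and 34.8, 27.2 and 23.0, and 16.7 and 24.8 in the 2 abemaciclib libraries. CCND2 and CCNA1 had no promoter peak in any of the 4 libraries.

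Of 15 genes for turnover of the inhibitor proteins, 14 had a promoter peak in both abemaciclib libraries, 9 with none in DMSO and 3 in all 4. The 3 were SKP2, whose ubiquitin ligase marks p27KIP1 for destruction, DTL, whose ligase removes p21CIP1 in S phase, and CUL4B, a scaffold of such ligases. The DTL promoter peak had folds of 17.8 and 13.4 in DMSO and 139 and 142 in abemaciclib, above every inhibitor gene in each library. SKP2 had 6.31 and 11.8 against 39.6 and 41.6, and CUL4B 6.06 and 7.16 against 54.4 and 31.6. CUL4A, CUL1 and RNF123 ranked highest of the 9 without a DMSO peak, with folds from 11.2 to 16.8.

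Of 27 transcriptional regulators of the inhibitor genes, 22 had a promoter peak in both abemaciclib libraries, 11 with none in DMSO and 6 in all 4. The 6 were SP1, CTCF, EZH2, E2F1, MYC and SMAD2. EZH2, the methyltransferase of Polycomb complex 2 that silences CDKN2A, had folds of 12.7 and 10.7 in DMSO and 75.2 and 65.7 in abemaciclib. SP1, which binds the GC boxes of CDKN1A, had 11.1 and 10.3 against 84.6 and 95.7, and E2F1 had 11.1 and 10.6 against 58.6 and 51.2. MYC, a repressor of CDKN1A and CDKN2B, had 9.06 and 12.8 against 44.2 and 43.2, while CTCF had 8.48 and 8.70 against 65.2 and 63.4, and SMAD2 5.77 and 5.48 against 26.7 and 51.8. DMTF1, an activator of p14ARF, TBX3, its repressor, and SP3 ranked highest of the 11 without a DMSO peak. KLF6 and FOXO4 had no promoter peak in any library.

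Set against all coding genes, 27 of the 55 pathway genes had a promoter peak with abemaciclib alone, 49.1%, where 38.9% of coding genes did. With a peak in all 4 libraries there were 11, 20.0%, where 6.41% of coding genes did. The genes were picked for their part in this pathway with earlier results known, and these shares are descriptions.

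**Figure D4:**
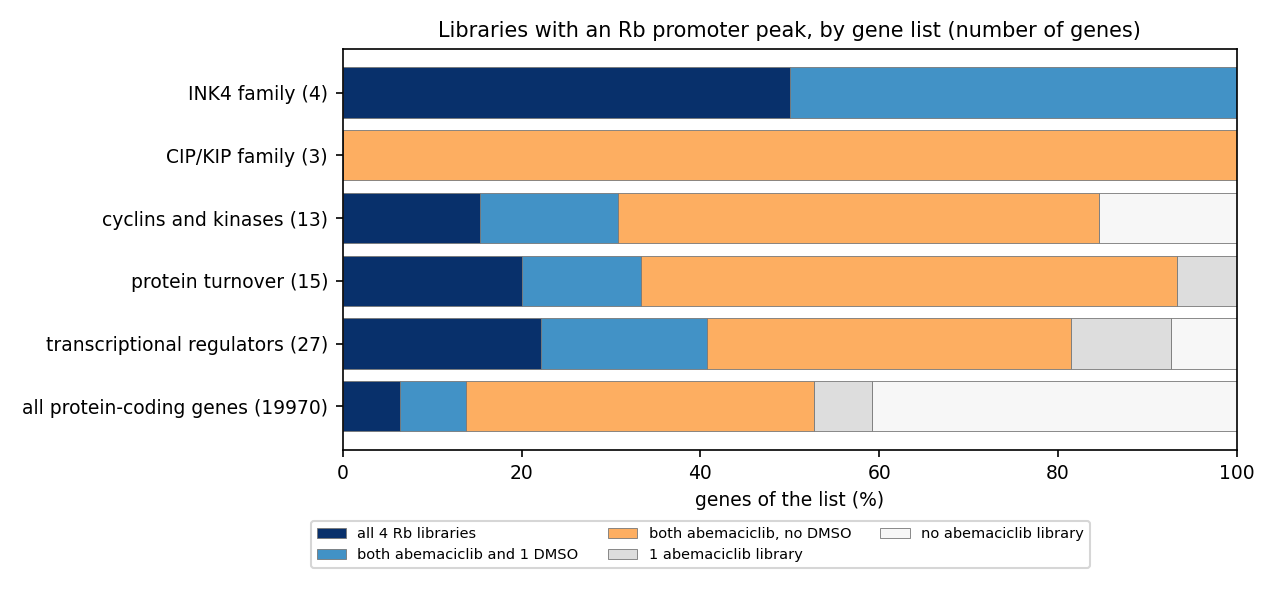
Share of the genes of each list (%) by the Rb libraries that hold a promoter peak, as stacked bars, with the number of genes in brackets. At the authors' q-value limit of 0.05, the CIP/KIP bar is wholly of the kind with abemaciclib peaks and no DMSO peak. The INK4 bar has none of that kind, and 38.9% of all coding genes are of that kind. With a limit of 0.01, CDKN2B is of that kind too. CDKN2A is counted by the peaks at its distal TSSs, not at those of p16INK4a.

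For each inhibitor gene, the pathway gene with the nearest pattern was found as the smallest Euclidean distance between peak percentiles in the 4 Rb libraries, with 0 for no peak. CDKN2B lay nearest to KLF4, at 3.92 percentile points, CDKN1B to CUL1 at 6.37, CDKN2C to E2F3 at 8.84 and CDKN1C to PSME3 at 8.84. CDKN1A lay nearest to UHMK1 at 11.5, CDKN2D to RBX1 at 17.1 and CDKN2A to FOXO3 at 22.2. The percentiles of CDKN2C in the 4 libraries were 4.52, 70.6, 96.2 and 97.0, and those of E2F3 were 0, 76.9, 92.4 and 95.0. The strongest promoter peak of each library was used, so the CDKN2C values mix 2 sites. The 4.52 came from the upstream peak shared with FAF1, and the others from the peak over the TSS at 50968706.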

How the data were processed

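Rb CUT&RUN was done in ZR-75-1 cells with 2 libraries per treatment and an IgG2a library. The authors used BBDuk for trimming and Bowtie2 2.3.4.1 for alignment to GRCh38, removed mitochondrial and blacklisted reads, kept duplicates, and called peaks per library against IgG with MACS2 2.2.7.1 at a q-value of 0.05. Which IgG library served the abemaciclib lists was not given in the sources used here beyond being matched, and the IgG2a list analysed came from DMSO-treated cells, so the control behind the abemaciclib folds and p-values is unknown. The deposited lists hold, per peak, a fold (ratio) over local background, the −log10 of the p-value and of the q-value, and a score. They hold no read counts, so the study's differential binding test was not run, and a peak below threshold counts as absent.

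Here Python 3.11.15 (pandas 2.3.3, scipy 1.17.1) was used. A peak was assigned to a gene with at least 1 bp of overlap with a window of 2000 bp upstream to 500 bp downstream of a GENCODE 44 TSS, or with the gene record. TSSs within 500 bp formed a group. Peaks were ranked by −log10 p within a library, and pileups were solved to 0.002 in log10 p. These steps recovered known answers on simulated data. Coordinates count from 1. The comparison of treatments used an exact permutation test over libraries.

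The members and lists were chosen with earlier results of these data known. Genes named were the 7 members, the genes that share their promoters, and the pathway gene nearest in pattern to each. From each pathway list, the genes with a promoter peak in all 4 Rb libraries and the 3 best ranked with abemaciclib peaks and no DMSO peak were named as well. The genes of these lists without any promoter peak were named after their values were seen, as were APOLD1 and the number of members at each threshold. The upstream sequence of CDKN1C is not reported here.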

Additional observations from a re-analysis of the deposited data

How the results depend on the processing

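Over 8 results and 91 alternatives, 76 kept the result within 1.5 times of its value or in its direction, 14 moved it and 1 reversed it. The labels tie same-numbered libraries by nothing but the number. A replicate block over them, chosen after seeing the data, gave differences of 5 and 3 members, a mean of 4 and an exact two-sided p of 0.5, the lowest that 2 pairs allow.

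Keeping the 1438 strongest peaks of each Rb library removes most abemaciclib peaks by construction. It gave 0 members with promoter peaks in abemaciclib alone, 1 with a peak in all 4, 1 with a promoter peak and 1 with a gene body peak in both abemaciclib libraries, and a reversed difference of -1. Pathway genes with abemaciclib peaks alone fell to 3, and coding genes to 223. Under a q-value limit of 0.01, 0 members had a peak in all 4 libraries. With abemaciclib alone there were then 4, CDKN2B besides CDKN1A, CDKN1B and CDKN1C. Under a limit of 1e-05, 0 members again had a peak in all 4 libraries and 6 had peaks with abemaciclib alone. Pathway genes with peaks in all 4 libraries numbered 7 under that limit. Counting a peak only for the coding gene with the nearest TSS, an alternative chosen after seeing the data, left 1 member, CDKN2D, with a peak in all 4.

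Leaving out 1 library at a time gave 3 to 5 members with peaks in abemaciclib alone, 2 to 4 with a peak in every remaining library, a difference of 3 to 5, and 11 to 17 pathway genes with a peak in every remaining library. The DMSO libraries decided these ranges. CDKN2A and CDKN2B had a DMSO peak in replicate 2 only, so that without it 5 members had peaks with abemaciclib alone, and without replicate 1 all 4 INK4 genes had a peak in every remaining library. Mean percentiles of the members in abemaciclib moved by more than 1 SD in 7 of 21 alternatives, and in none of the 21 did a CIP/KIP gene rank above an INK4 gene. Requiring the summit in the window changed no percentile, since every strongest promoter summit already lay there. The other alternatives ranked the same peaks by fold or among promoter peaks.

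Fold, p-value and list length depend on the depth of a library. A DMSO pileup under 6 fragments at average background is not listed, so an absent peak is no measure of absent Rb. With 2 cultures per treatment of 1 cell line, the spread between replicates is itself poorly known.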
